A study of Mus musculus with 2 samples.

Results

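Among the cells sorted as CD8+ T cells from MC38 tumours, a small set of barcodes carried the transcripts of mature dendritic cells, led by Fscn1. They were chosen by a rule on measured counts: at least 500 genes, a mitochondrial share under 10%, at least 3 unique molecular identifiers (UMIs, 1 for each captured RNA molecule) of Fscn1, at least 3 of Cd74 and under 2 of Siglech. The rule kept 105 of the 15516 barcodes that passed its first 2 filters, 62 of 7163 in the control library and 43 of 8353 in the NK-depleted library. Both groups were wild-type (WT) mice with MC38 tumours, a colon carcinoma line, taken 9 days after implantation. The control group received PBS and is named Iso in its library label. The other group received the a-NK1.1 antibody, which depletes natural killer cells. Each group is 1 library of the 10x 5' V2 kit, made from live CD8+ T cells sorted by flow cytometry. The number of mice behind each library and any pooling of them are not given in the sources used here, so no difference between the groups has a replicate check and none was tested. Intervals below are exact 95% intervals and cover counting error only.

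Dendritic cells take up antigen in a tissue and, once activated, mature: they stop sampling, raise the chemokine receptor Ccr7, rebuild their actin cytoskeleton and travel to lymph nodes. Fascin, the product of Fscn1, bundles actin filaments and is a hallmark of that state. In tumours such cells carry both costimulatory ligands and inhibitory ones, such as PD-L1 (Cd274) and Cd200, and the noncanonical NF-kB factor Relb is a main driver of the maturation programme. Plasmacytoid dendritic cells, marked by Siglech, are a separate lineage that makes type I interferon.

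A comparison was made with 14914 CD3+CD8+ barcodes (6810 control, 8104 NK-depleted) and with 93 Siglech barcodes (61 and 32). The members were deeper than either class. Their median was 29631.5 UMIs in control and 26010 in NK-depleted, against 11327 and 12253.5 in CD3+CD8+ barcodes and 13927 and 10185.5 in Siglech barcodes. In all, 391 barcodes occurred in both libraries. They included 9 control members and 3 NK-depleted members, none of which was a member in the other library. Their copies in the other library held 511 to 1446 UMIs, 0.664% to 0.895% of the deep copy.

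The 2 genes of the rule had the values it selects for. Fscn1 ranged from 6 to 137 UMIs per control member with a median of 26.5, and from 3 to 89 with a median of 14 in NK-depleted members. Cd74, the invariant chain of MHC class II, ranged from 4 to 1031 (median 41) and from 3 to 290 (median 28). No control member lay at 3 to 5 Fscn1 UMIs, whereas 4 NK-depleted members had 3 and 1 had 4 or 5. Just outside the minimum, 2 control barcodes and 1 NK-depleted barcode had 2 Fscn1 UMIs with at least 3 of Cd74. The 2 control ones held a median of 31.5 Ccr7 and 14 Cd63 UMIs, and the NK-depleted one held 14 and 1.

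Markers the rule did not use were present as well. All 4 other markers, Ccr7, Cd63 (a tetraspanin of late endosomes), Marcks and Basp1 (both actin-linked membrane proteins), had at least 2 UMIs in 56 of 62 control members and in 36 of 43 NK-depleted members. Ccr7 had a median of 31.5 UMIs in control (0 to 127) and 28 in NK-depleted (0 to 70). Marcks was present in 62 of 62 and 42 of 43 members, and Basp1 in 62 and 41. Among dendritic cell genes, Flt3, the receptor for the growth factor that dendritic cells need, was found in 59 and 29 members and the lineage factor Zbtb46 in 35 and 15. Itgax, which codes for CD11c, was low, at 15.0 and 5.58 CPM (UMIs scaled to a class total of 1000000), with UMIs in 8 and 6 members. Most defining markers of other cells were at or near 0. Adgre1 of macrophages, Ly6d, Klk1, Cox6a2 and Cd300c of plasmacytoid cells and Clec10a of type 2 dendritic cells had no UMI in any of the 105 members. A count of 0 allows a share of members with a UMI of up to 2.86%, taken as 3 of 105, and does not limit the share that expresses the gene. Over the whole macrophage and monocyte list, 5 of 12 genes in control and 2 of 12 in NK-depleted were at 0, and the list summed to 1290 and 1636 CPM, of which Ly6c2 made up 1282 and 1615. Ly6c2 stood at 2632 and 2961 CPM in CD3+CD8+ barcodes. Of the plasmacytoid list 4 and 5 of 12 genes were at 0, and it summed to 1045 and 992 CPM, with Bst2 (556 and 539), Irf7 (207 and 232) and Runx2 (139 and 137) in the lead, beside a sum of 1210 and 870 CPM in CD3+CD8+ barcodes. Xcr1 and Clec9a, markers of resident type 1 dendritic cells, had UMIs in 2 and 1 and in 4 and 4 members. By GENCODE gene models on GRCm38, Fscn1 is at chr5:142960343-142973185, Ccr7 at chr11:99144196-99155077, Cd63 at chr10:128900989-128912822, Marcks at chr10:37133375-37138920 and Basp1 at chr15:25363277-25413764.

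Most members also held T cell transcripts. The UMIs of Cd3d, Cd3e, Cd3g and Cd8b1, which code for the CD3 chains and the CD8 beta chain, were summed in each barcode. In control, 45 of 62 members had 10 or more (72.6%, 59.8 to 83.2), and in NK-depleted 32 of 43 (74.4%, 58.8 to 86.5). The sums fell apart into low and high ones, with no member between 2 and 28 in control or between 7 and 20 in NK-depleted. Every member above the gap reached the 10th percentile of CD3+CD8+ barcodes (19 and 16 UMIs), and 37 and 28 members reached their median (54 and 48). Members above the gap were also the deeper ones, with a median of 40464 and 35340.5 UMIs against 10560 and 7981 below it. Below the gap stood 17 control members and 11 NK-depleted members. 1 of the latter, with 91621 UMIs and other genes in the lead, is described separately, and the 10 others are used as the members with few T cell transcripts. The sort gated CD8+ T cells, and how it bears on these counts was not tested.

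**Figure D1:**
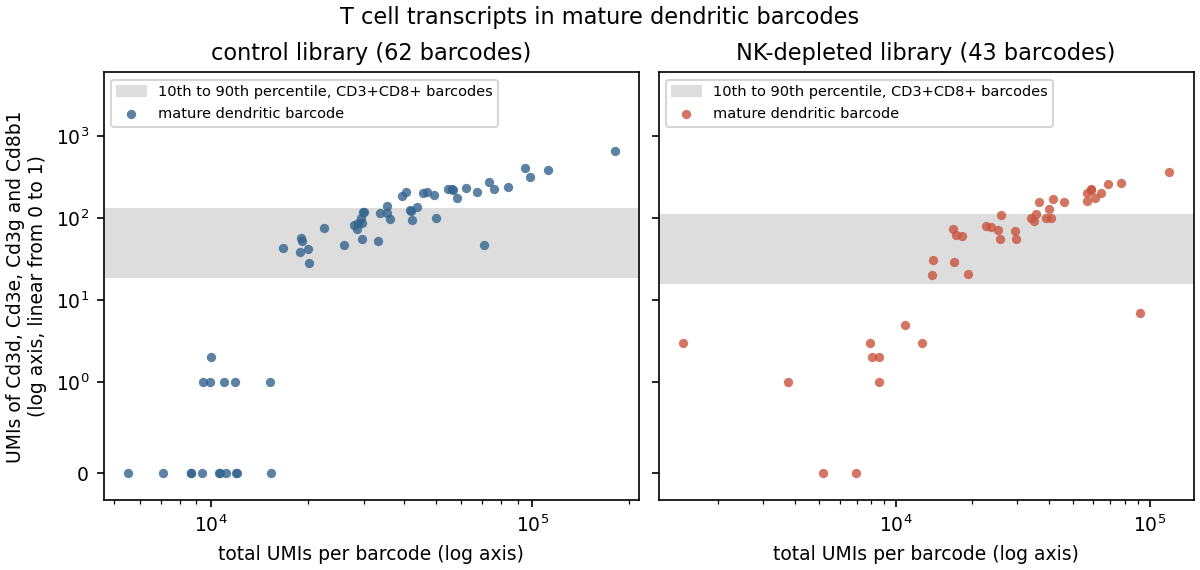
Summed UMIs of Cd3d, Cd3e, Cd3g and Cd8b1 (y axis, log above 1 and linear below) against total UMIs (x axis, log) for each mature dendritic barcode, with the 10th to 90th percentile of CD3+CD8+ barcodes in grey. In control a cluster of 17 members at 0 to 2 T cell UMIs is set apart from 45 members at 28 or more; in NK-depleted 11 members lie at 7 or fewer and 32 at 20 or more.

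T cell genes of the members above the gap stood at similar shares of their level in T cells. Over 16 T cell genes, their level was a median of 74.2% of that in CD3+CD8+ barcodes in control (67.6% to 88.2%) and 84.9% in NK-depleted (60.8% to 132%). In members with few T cell transcripts the medians were 1.74% and 5.97%, and in Siglech barcodes 35% and 36.3%. Since 4 of the 16 genes made the split, part of this gap was set by it. Over the 12 genes that did not, the medians were 74.0% and 86.2% above the gap and 1.95% and 5.24% below it. Of the Siglech barcodes, 33 of 61 and 11 of 32 had 10 or more T cell UMIs. A pair of genes did not follow the others in the members with few T cell transcripts. Cd8a, the CD8 alpha chain, which a subset of dendritic cells makes as well, stood at 17.7% and 23.3% of the T cell level, against 0.986% and 9.33% for Cd8b1, which the split itself held low. Cd8a had UMIs in 8 of 17 and 8 of 10 of these members, and Cd8b1 in 2 and 6. The Cd8a counts were small: 28 UMIs in control, 17 of them in 2 barcodes, and 12 in NK-depleted, where 2 of 10 members had at least 2. Lat, another gene outside the split, stood at 3.83% and 16.2%, the latter not far from Cd8a. Ccl5, a chemokine made by T cells and by dendritic cells alike, was at 3460 and 3109 CPM, or 114% and 275% of the T cell level. Whether T cell RNA in a member came from a T cell caught in the same droplet or from free RNA was not tested.

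Scaled to 100 UMIs of the 3 CD3 genes, 23 genes of T cell state could be set beside the CD3+CD8+ barcodes. Their median ratio was 1.29 in control and 1.2 in NK-depleted. In both libraries 3 of them were over 1.5 in members above the gap: Itga4, an integrin chain (2.19 and 5.29), Il2ra, a chain of the IL-2 receptor (2.77 and 1.64), and Il7r, a chain of the IL-7 receptor (2.15 and 1.68). These 3 genes also had UMIs in members with few T cell transcripts. There Il7r stood at 991 and 527 CPM, Itga4 at 963 and 662 and Il2ra at 174 and 67.6. Among the genes lower by the same margin in both libraries was Xcl1, a chemokine that draws type 1 dendritic cells (0.587 and 0.114).

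Against CD3+CD8+ barcodes, the members held more RNA of Cd63, Cxcl16, Ccr7, the MHC class II chains and Relb, among other genes. Levels were compared as CPM of UMIs summed over a class, and a gene was compared where it reached 50 CPM in either class of both libraries, so that a gene could enter through the class where it is high. Of 3078 genes compared, 222 were at least 2-fold higher in the members in both libraries (7.21%) and 7 were at least 2-fold lower (0.227%). Among members with few T cell transcripts, 639 of 3418 were higher (18.7%) and 601 lower (17.6%). The median log2 ratio over all genes was -0.05 in control and 0.00 in NK-depleted for all members, and -0.12 and -0.10 for those with few T cell transcripts. Most genes called higher entered through the members: 2683 of the genes compared reached 50 CPM within CD3+CD8+ barcodes of both libraries, and 45 of these were higher (1.68%). The list counts that follow therefore describe the members and support nothing by themselves.

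Among genes of at least 100 CPM, the widest ratio belonged to Mmp25, a membrane-anchored metalloproteinase. It stood at 244 CPM in control members and 189 in NK-depleted members, against 0.232 and 0.372 in CD3+CD8+ barcodes, a ratio of 1050 (699 to 1653) and 508 (370 to 710). It had UMIs in 59 of 62 and 41 of 43 members. Il4i1, a secreted enzyme that breaks down aromatic amino acids, stood at 161 and 135 CPM against 0.609 and 0.550. Cd63 was at 467 and 406 CPM against 2.62 and 1.95, a ratio of 178 (156 to 205) and 208 (179 to 243). Cxcl16, a membrane-bound chemokine whose receptor Cxcr6 is carried by tumour T cells, was at 327 and 278 CPM against 2.25 and 1.56. It was found in 62 of 62 and 40 of 43 members, with a median of 10 and 8 UMIs. Tbc1d4, which regulates vesicle traffic, had UMIs in every member, at 828 and 724 CPM against 11.3 and 5.53. Cst3, the protease inhibitor cystatin C, was also in every member, at 4485 and 3832 CPM against 174 and 168, a ratio of 25.7 and 22.8. Fabp5, a fatty acid carrier, was at 1450 and 1077 CPM against 23.4 and 28.2.

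The remaining genes among the 24 widest ratios were Anxa3, Cacnb3, Ctsh, Marcks, Cd83, Ccdc88a, Basp1, Rogdi, Cbfa2t3, Ramp3, H2-Aa, Marcksl1, Tmem176b, Tmem176a, H2-Eb1, Gnb4 and H2-Ab1. All 24 ratios were larger when only members with few T cell transcripts were counted, in each library, as the plot of the 24 ratios shows. At the other end stood Gzma, a granzyme of cytotoxic T cells, at 43.7 and 16 CPM against 227 and 318. The other 5 lowest ratios, of Lars2, Emb, Ifi208, Ly6c2 and Gimap6, lay between 0.37 and 0.55. With few T cell transcripts, Gzma and Emb had no UMI in members of either library.

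**Figure D2:**
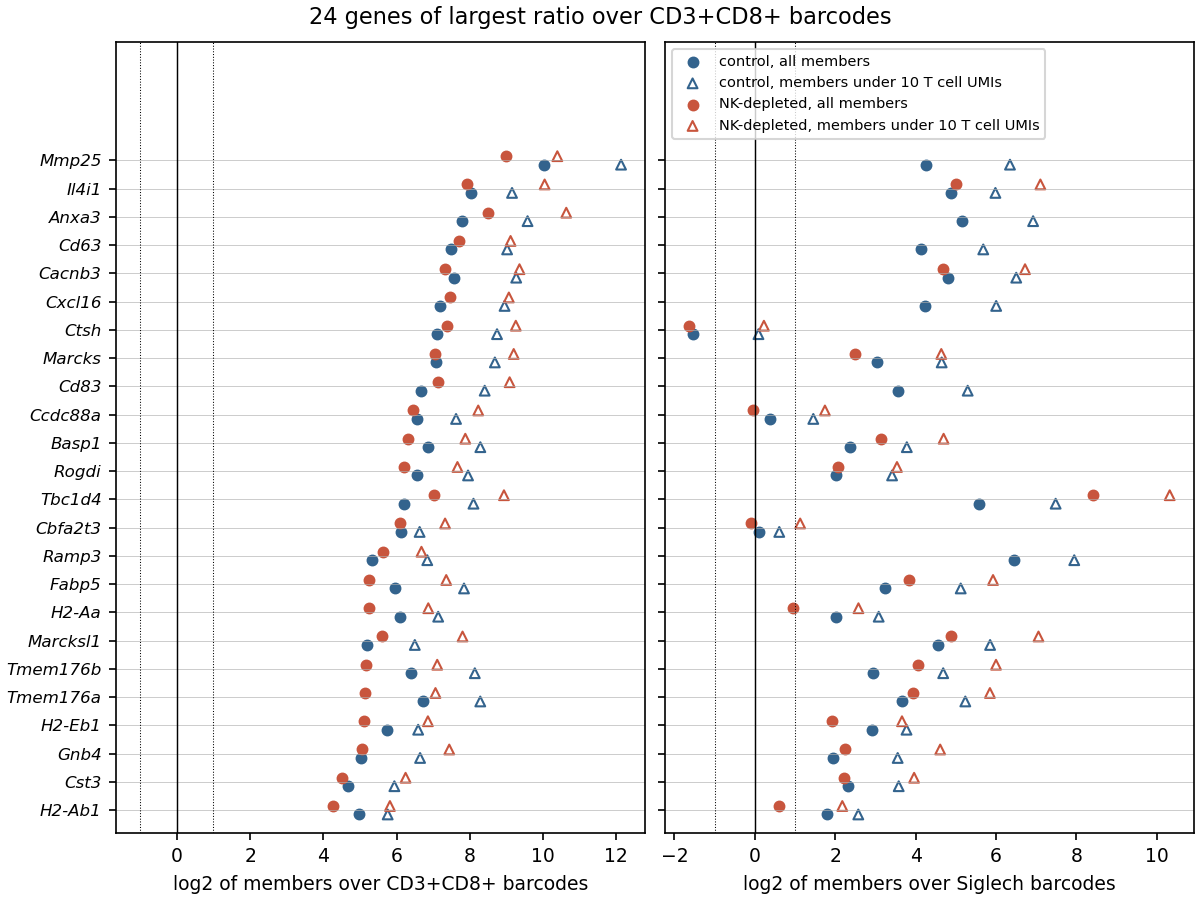
Log2 ratio (x axes) of the 24 genes with the largest ratio over CD3+CD8+ barcodes, ordered by the weaker of their 2 library ratios, over CD3+CD8+ barcodes (left) and Siglech barcodes (right); filled circles are all members, open triangles those with few T cell transcripts, and dotted lines mark 2-fold. Ratios to Siglech barcodes that have a count of 0 there are not drawn. Triangles lie to the right of circles for every gene on the left. On the right Ctsh, at a ratio of 0.344 and 0.321 over all members, is the gene lower than in Siglech barcodes by over 2-fold, while its triangles are near equal level.

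Of the migration and cytoskeleton list, 14 of 19 genes compared were at least 2-fold higher than in CD3+CD8+ barcodes (7.21% of all genes), with a median log2 ratio of 2.37 in control and 2.50 in NK-depleted. The receptor Ccr7, which guides cells along Ccl19 and Ccl21 to lymph nodes, stood at 988 and 821 CPM against 48.3 and 45.7, a ratio of 20.5 and 18. Marcks stood at 573 and 439 CPM, Marcksl1 at 302 and 309 and Basp1 at 465 and 369, each under 9 CPM in CD3+CD8+ barcodes. Samsn1, an adaptor protein, was at 1020 and 846 CPM against 253 and 224, and the tubulin gene Tuba1a at 454 and 395 against 66.2 and 77.1. Vim, the intermediate filament vimentin, was not apart over all members, with ratios of 0.962 and 1.08. It stood at 0.377 and 0.298 in members with few T cell transcripts, where 18 of 20 genes of the list were higher and 2 lower (18.7% and 17.6% of all genes). Within CD3+CD8+ barcodes 7 of the 19 genes reached 50 CPM, and 3 of the 7 were higher in the members.

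Antigen presentation genes stood high for MHC class II, while for class I 17 of 18 genes did not pass 2-fold against CD3+CD8+ barcodes in both libraries. Of the class II list 5 of 6 genes compared were higher, and the sixth, the protease gene Ctss, had ratios of 1.94 and 2.23. Only Ctss reached 50 CPM within CD3+CD8+ barcodes of both libraries. H2-Aa, which codes for an alpha chain, stood at 1388 and 853 CPM against 20.5 and 22.5, H2-Ab1 at 768 and 493 against 24.4 and 25.9, and H2-Eb1 at 1081 and 654 against 20.2 and 18.9. Ifi30, a lysosomal reductase that opens antigens, was at 417 and 332 CPM against 21.6 and 23.5. Of the class I list, 1 of 18 genes was higher, the proteasome activator Psme2, at 836 and 778 CPM against 389 and 371. B2m, the shared light chain, had ratios of 1.11 and 1.1 and the peptide transporter Tap1 1.17 and 1.25. With few T cell transcripts 7 of 18 were higher.

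Ligands for T cells were present on both sides of activation. Of costimulatory ligands, 2 of the 3 genes compared were higher (7.21% of all genes), Cd86 (140 and 96.9 CPM against 53.7 and 27.6) and Cd83 (293 and 205 against 2.85 and 1.47), while Cd48 had ratios of 0.712 and 0.818. Within CD3+CD8+ barcodes 1 of the 3 reached 50 CPM, and it was not higher. With few T cell transcripts 7 could be compared and 6 were higher. Cd80, which binds CD28 and CTLA-4, had UMIs in 51 and 22 members, and Cd40, through which T cells license dendritic cells, in 29 and 20. Of the inhibitory and regulatory list 5 of 10 were higher. Within CD3+CD8+ barcodes 5 of the 10 reached 50 CPM, and 1 of these was higher. Cd274 was at 212 and 144 CPM against 62.5 and 39.9, a ratio of 3.39 (3.09 to 3.72) and 3.60 (3.12 to 4.14). Cd200 was at 248 and 190 against 14.6 and 9.03, and Socs2, a feedback inhibitor of cytokine signalling, at 337 and 210 against 14.9 and 15.1. The other 2 were Il4i1 and Tnfrsf4. Pdcd1lg2, the second ligand of PD-1, had ratios of 1.62 and 1.83, and Ido1 had UMIs in 2 and 4 members.

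Of soluble factors, 2 of 4 cytokine genes and 2 of 6 chemokine genes were higher (7.21% of all genes). Within CD3+CD8+ barcodes 2 of the cytokine genes and 4 of the chemokine genes reached 50 CPM, and none of these was higher. Il12b, the p40 chain of IL-12, was at 70.3 and 160 CPM with UMIs in 17 and 12 members, against 0.0580 and 0.0486 CPM in CD3+CD8+ barcodes. Its partner Il12a, the p35 chain, and Il23a, the p19 chain that p40 joins in IL-23, had no UMI in any of the 105 members. Il15ra, which presents IL-15 to T cells, was at 82.7 and 63.4 CPM against 19.6 and 13.2. Ccl22, a ligand of Ccr4 on regulatory T cells, was at 89.5 and 76.0 CPM with UMIs in 40 and 20 members. Its close relative Ccl17 had UMIs in 4 and 0 members.

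NF-kB genes were higher in 11 of 18 compared, with a median log2 ratio of 1.35 and 1.23. Of the 9 that reached 50 CPM within CD3+CD8+ barcodes, 5 were higher. Relb was at 242 and 213 CPM against 31.3 and 31.6, and Map3k14, the kinase NIK that activates the noncanonical pathway, at 158 and 126 against 22.5 and 19.3. The canonical subunits were closer to T cells: Nfkb1 had ratios of 1.69 and 1.56 and Rela 1.57 and 1.33, while Rel stood at 428 and 296 CPM against 99.1 and 69.4. The adaptor gene Traf1 was at 540 and 545 against 162 and 158. With few T cell transcripts 15 of 19 were higher and none lower, with Relb at ratios of 24.3 and 22.6. Of the factors of dendritic cell identity, 8 of 16 were higher (7.21% of all genes), among them Spi1 (84.0 and 60.6 CPM against 1.78 and 1.49), Batf3 (84.0 and 65.5 against 0.870 and 3.09) and Etv3 (344 and 250 against 49.8 and 42.3). Within CD3+CD8+ barcodes 7 of the 16 reached 50 CPM, and 1 of the 7 was higher.

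The promoters of the genes with the widest ratios were searched for the kappaB pattern of GGGA, any 4 bases and CC on either strand, in the 250 bases before each RefSeq start. Whether NF-kB acts on these genes was not tested. A start could be found for 16 of the 24 genes, and 5 of them held a match (31.2%), against 5317 of 27025 genes in all (19.7%) and 9 of 19 genes of the NF-kB list (47.4%). A gene counted if any of its starts had a match, so genes with more starts had more chances. The 27025 genes were not limited to those compared here. The stretches around the 5 matches are shown, with Ccl22, Birc3, Rel and Tnip1 beside them as a chemokine and 3 pathway genes. Each reads 5' to 3' on the strand of its gene (GRCm38.p6, RefSeq), and capitals mark the match, which on the opposite strand reads GG, any 4 bases and TCCC.
Il4i1, chr7:44836064-44836123, plus strand: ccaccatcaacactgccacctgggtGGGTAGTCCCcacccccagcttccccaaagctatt
Cacnb3, chr15:98634708-98634766, plus strand: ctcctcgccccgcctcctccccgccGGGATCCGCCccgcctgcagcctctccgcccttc
Tbc1d4, chr14:101609231-101609290, minus strand: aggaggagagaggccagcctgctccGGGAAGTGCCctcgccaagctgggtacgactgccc
Cbfa2t3, chr8:122678352-122678411, minus strand: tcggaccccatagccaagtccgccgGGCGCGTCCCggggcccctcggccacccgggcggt
H2-Aa, chr17:34287920-34287979, minus strand: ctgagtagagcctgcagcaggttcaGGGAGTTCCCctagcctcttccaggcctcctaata
Ccl22, chr8:94745528-94745587, plus strand: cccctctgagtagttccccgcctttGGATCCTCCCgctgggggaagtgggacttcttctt
Birc3, chr9:7873193-7873252, minus strand: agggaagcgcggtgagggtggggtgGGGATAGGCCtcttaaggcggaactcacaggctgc
Rel, chr11:23771027-23771086, minus strand: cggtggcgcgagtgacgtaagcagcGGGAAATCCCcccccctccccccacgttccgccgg
Tnip1, chr11:54962963-54963022, minus strand: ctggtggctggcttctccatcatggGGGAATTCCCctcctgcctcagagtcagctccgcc
The match began 34 bases before the start of Cacnb3, 74 before that of Tbc1d4, 131 before those of H2-Aa and Ccl22, 199 before that of Il4i1 and 211 before that of Cbfa2t3. These are matches of letters in a fixed window and show no binding.

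In several lists few or no genes passed 2-fold against CD3+CD8+ barcodes. None of 13 type I interferon genes, 11 S phase genes, 10 genes of G2 and M phase or 13 genes of glycolysis and hypoxia was 2-fold higher or lower in both libraries. Of the survival list 3 of 13 genes were higher (Bcl2l14, Bcl2a1b and Pmaip1) and of the antigen uptake list 2 of 5 (Lamp1 and Lgmn, both lysosomal), beside 7.21% of all genes. Within CD3+CD8+ barcodes 11 and 3 genes of these 2 lists reached 50 CPM, and 1 of each list was higher. Neither of 2 cholesterol genes was apart. The interferon gamma list had 1 of 17 higher, Cd274. These counts were others in members with few T cell transcripts, where 18.7% of all genes were higher and 17.6% lower. There 3 of 14 type I interferon genes and 3 of 13 genes of glycolysis and hypoxia were lower and none higher. Of the interferon gamma list 4 of 16 were higher and 1 lower, of the survival list 6 of 13 and 1, and of the antigen uptake list 3 of 5 and 1, while 2 of 4 cholesterol genes were higher. Mki67, a proliferation marker, was at 263 and 324 CPM over all members against 271 and 373 in CD3+CD8+ barcodes, and had no UMI in members with few T cell transcripts. There 10 of 11 S phase genes and 7 of 10 genes of G2 and M phase were lower. None of the 15 genes of the CD8 T cell list passed 2-fold in both libraries over all members, and all 15 were lower with few T cell transcripts, where their summed level was 364 and 906 CPM against 10268 and 10399 over all members. That fall was in part set by the split, which used 4 T cell genes.

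**Figure D3:**
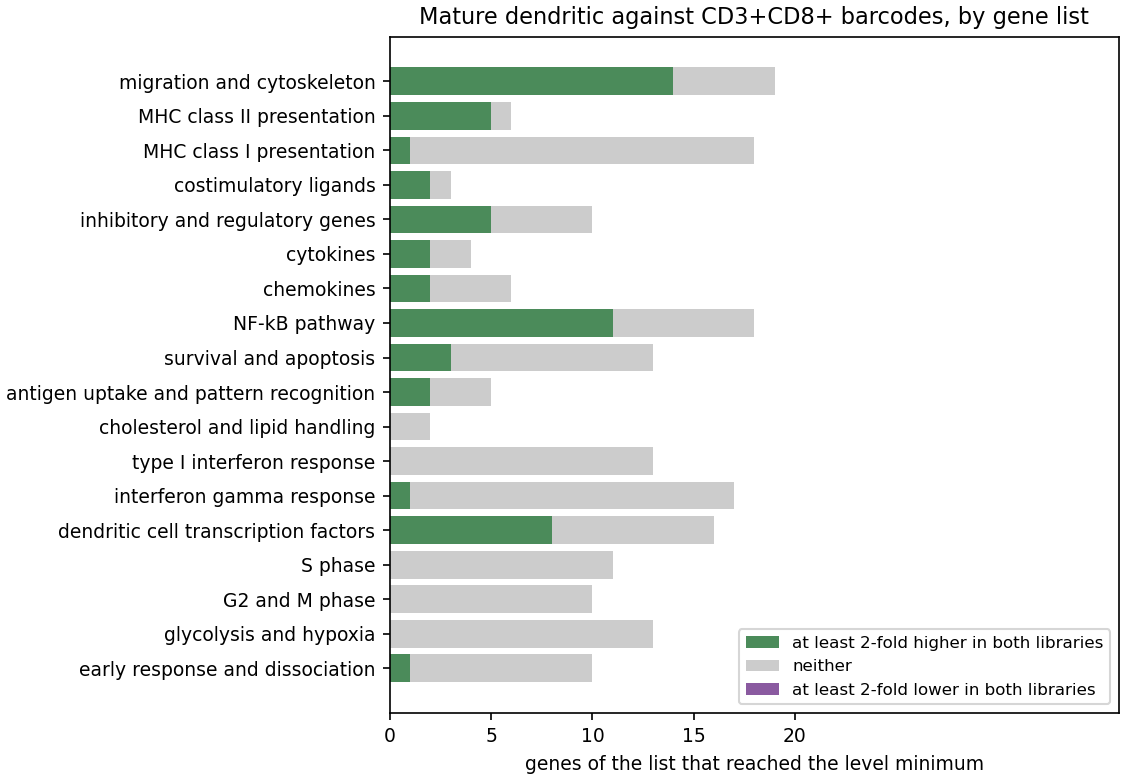
Number of genes (x axis) of each of 18 gene lists that reached the level minimum, split into those at least 2-fold higher in mature dendritic than in CD3+CD8+ barcodes in both libraries and those that were not. The longest green bars are migration and cytoskeleton with 14 of 19, NF-kB pathway with 11 of 18 and dendritic cell transcription factors with 8 of 16; no list has a gene at least 2-fold lower. Over all genes 222 of 3078 were higher, and a gene could reach the minimum through the members alone.

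Against Siglech barcodes, the members were lower in 10 of 11 genes of the plasmacytoid list and higher in Tbc1d4, Socs2 and Ccr7. Of 3382 genes compared, 247 were at least 2-fold higher in the members in both libraries (7.30%) and 364 at least 2-fold lower (10.8%). For members with few T cell transcripts these were 539 (15.4%) and 613 (17.5%) of 3510. Among the plasmacytoid genes, Tcf4, the factor that specifies these cells, stood at 81.4 and 52.3 CPM against 1228 and 1155. Ly6d stood at 0 in the members against 1080 and 989 CPM, and the gut-homing receptor Ccr9 at 5.14 and 0 against 1760 and 991. The next lowest were Cox6a2, Blnk, Slamf9, Klk1, Smim5, Ppfia4, Pltp and Cd209d. The 3 UMIs that a count of 0 allows correspond to 1.29 and 2.09 CPM in the members.

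On the higher side stood Tbc1d4 (828 and 724 CPM against 17.4 and 2.11), Ramp3, a partner protein of the calcitonin receptor family (317 and 275 against 3.65 and 0), Socs2 and Ccr7 (988 and 821 against 61.2 and 19.0). A single control barcode held 25 Siglech and 46 Fscn1 UMIs, with 25526 in all, and was kept out of the members by the Siglech limit. It alone carried all 29 Cd63, 14 Mmp25 and 19 Cxcl16 UMIs of the 61 control Siglech barcodes, and 153 of their 169 Fabp5 UMIs. In NK-depleted Siglech barcodes Cd63, Cxcl16, Mmp25 and Cd83 had no UMI, so that Cd63 was at least 64.0-fold higher in the members, Cxcl16 at least 43.8-fold, Cd83 at least 32.4-fold and Mmp25 at least 29.8-fold, each against 3 UMIs over the class. Of the class II list 1 of 7 genes was higher and 2 were lower over all members, and 4 were higher and none lower with few T cell transcripts. H2-Aa had ratios of 4.07 (3.66 to 4.55) and 1.94 (1.67 to 2.26), and H2-DMa, a chain of the peptide exchanger, was lower at 0.306 and 0.215. The lysosomal proteases Ctsh and Ctsb were also lower over all members. Ctsh stood at 295 and 234 CPM against 858 and 729, and Ctsb at 173 and 171 against 1033 and 889. With few T cell transcripts Ctsh was not lower than in Siglech barcodes, with 163 and 63 UMIs in sums of 178611 and 73980. Gzmf, a granzyme gene of T cells, was among the 16 highest at 356 and 839 CPM against 4.57 and 71.8, and had 1 and 12 UMIs in members with few T cell transcripts.

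Members differed among themselves in class II genes. H2-Aa had no UMI in 10 control and 6 NK-depleted members, 1 to 29 in 22 and 23, and 30 or more in 30 and 14. The maximum was 604 in control and 150 in NK-depleted. Members without H2-Aa still carried the maturation genes. Their median Ccr7 was 25.5 and 11.5 UMIs and their median Fscn1 20.5 and 11.5, at a median depth of 15345 and 8229.5 UMIs, against 31.5 and 25 (Ccr7) and 27.5 and 13.5 (Fscn1) at 31554 and 29595 UMIs in those with 30 or more. Their Cd74 was lower, at medians of 25 and 7.5 UMIs against 121.5 and 132.5. Flrt3 and Gnb4 were picked because, of 110 genes, they had the lowest rank correlation with H2-Aa in these barcodes. Flrt3, a membrane adhesion protein, went the opposite way, with medians of 3.5 and 4.5 UMIs in members without H2-Aa and 1 and 0 in those with 30 or more. Gnb4, a G protein subunit, did the same, at 11.5 and 10 against 7 and 4.5. These groups were formed on a measured value, so the values of class II genes, Flrt3 and Gnb4 describe them and test nothing.

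Il12b was held by a minority of members. At least 2 UMIs were found in 12 of 45 control and 8 of 32 NK-depleted members with many T cell transcripts, 20 of 77 in all (26.0%, 16.6 to 37.2). None of the 27 members with few T cell transcripts had 2 (0%, 0 to 12.8, or up to 11.1% by 3 counts), and 2 of 17 control ones had 1. Those members are shallower, so all barcodes were thinned to 5500 UMIs. Then 10 of 45 and 8 of 32 members with many T cell transcripts still had an Il12b UMI, against 1 of 17 and 0 of 7 with few, where 3 NK-depleted members were left out as too shallow. In CD3+CD8+ barcodes the thinned share was 0.0487% and 0.0273%. Among members with many T cell transcripts, those with at least 2 Il12b UMIs are called with Il12b below. Those under 2 are called without, although some of them held 1. Between these groups, total UMIs were alike in control (medians 40643.5 and 40464) and higher with Il12b in NK-depleted (42539.5 and 31922.5). Cst3, Bcl2l14, Fabp5 and Ly86 were picked from 110 genes because their counts followed Il12b, up or down, in these same barcodes, so their values describe the split and test nothing. Cst3 had medians of 332.5 and 220 UMIs with Il12b against 59 and 58 without, and Bcl2l14, a Bcl-2 family gene, 11.5 and 4 against 1 and 1. Fabp5 was at 11 and 1.5 with Il12b and at 54 and 37.5 without, and Ly86, which pairs with a Toll-like receptor relative, at 0.5 and 0.5 against 4 and 2. Irf8, a factor of type 1 dendritic cells, had medians of 47 and 26.5 UMIs with Il12b and 14 and 12.5 without. Batf3 did not follow, with medians of 3 and 1.5 with Il12b against 3 and 2 without. Xcr1 had no UMI in members with Il12b and UMIs in 2 and 1 members without. Clec9a had medians of 0 in all 4 groups, which hide its detection. It had UMIs in 2 of 12 and 3 of 8 members with Il12b, against 2 of 33 and 1 of 24 without, which are small counts.

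Over 110 genes at least 10-fold higher in members than in CD3+CD8+ barcodes, the mean UMIs per barcode of members with many T cell transcripts was a median of 1.29 times that of members with few in control and 1.34 times in NK-depleted. In both libraries 10 of the 110 genes were at least 2-fold higher per barcode with many T cell transcripts and 1 was at least 2-fold lower. The 110 genes, of at least 100 UMIs, were chosen on sums over all members. Members with many T cell transcripts held 2155851 of 2334462 and 1268744 of 1434345 of those UMIs, so a gene high only there, such as Il12b, could enter. The share over all genes was not computed, and the 10 and 1 describe the split and test nothing.

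**Figure D4:**
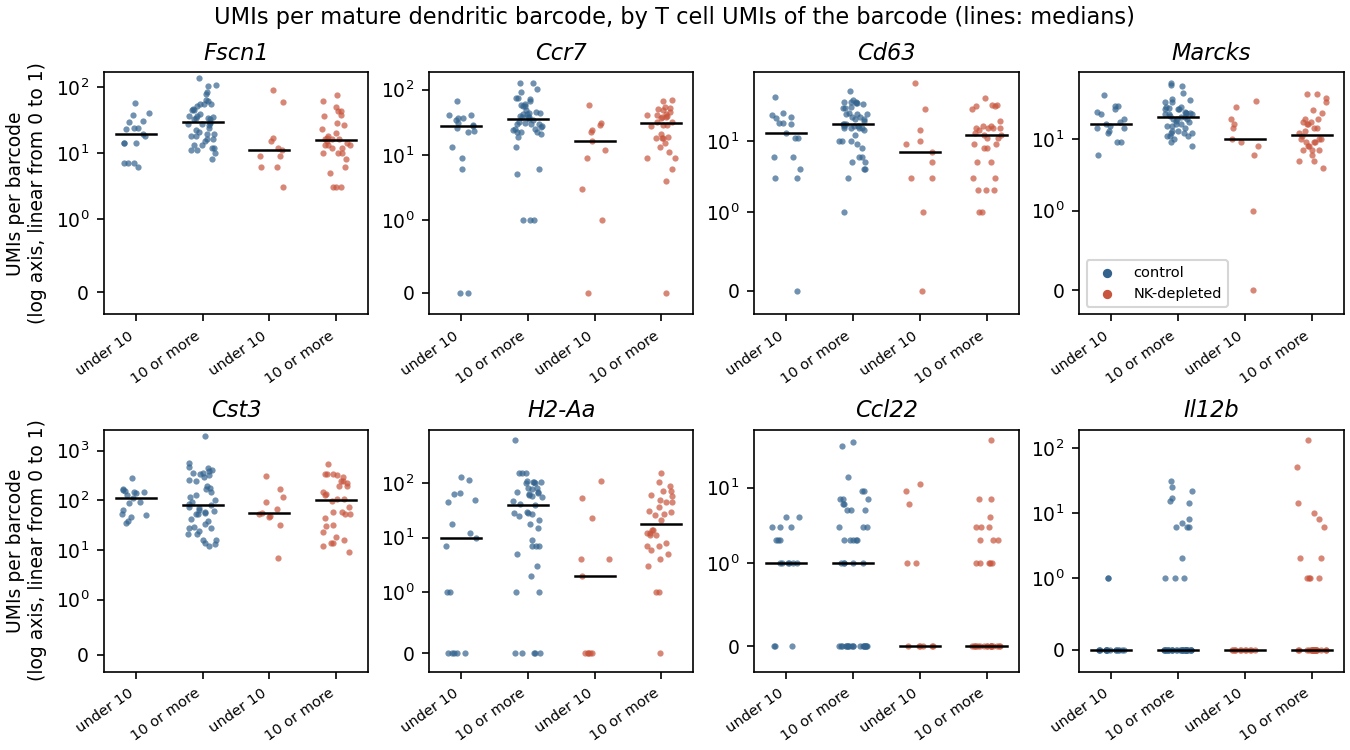
UMIs per barcode (y axes, log above 1 and linear below) of 8 genes in each mature dendritic barcode, split by library and by T cell UMIs under 10 or 10 and more; lines are medians. The NK-depleted members under 10 include the deepest one with 91621 UMIs. Fscn1, Ccr7, Cd63, Marcks and Cst3 appear on both sides of the split, with higher control maxima on the right of each pair (2007 against 286 UMIs for Cst3), H2-Aa runs from 0 to 604 UMIs, and Il12b at 2 or more UMIs appears only among the 20 members on the right of each pair.

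The genes that led in 2 members were not those of the rest. The control member with the most Cd74 (1031 UMIs, 70543 in all, 47 T cell UMIs) held 192 of the 206 Cxcl9 UMIs of the class, 69 Rab7b, 28 Plet1, 25 Wdfy4 and 604 H2-Aa, with 1 Ccr7 and 1 Cd63 UMI. Wdfy4, needed for cross-presentation, Plet1 and Rab7b had no UMI in the other 61 control members. The NK-depleted member with 91621 UMIs and 7 T cell UMIs held 121 Ankrd1, 96 Shisal2b, 72 Cald1 and 113 Spp1 UMIs and 70 of the 78 Ctsl UMIs, with 8 Cd74, 1 Ccr7 and no Flt3, Cd83, H2-Aa or Basp1. It passed the rule with 12 Fscn1 UMIs and is left unnamed. Both were chosen after their values were seen.

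The share of members among kept barcodes was 0.866% in control (0.664 to 1.11) and 0.515% in NK-depleted (0.373 to 0.693). Each interval covers counting error in its own library and does not compare the groups. Without the members that had 10 or more T cell UMIs it was 0.237% and 0.132%. The sort for CD8+ T cells can set both shares, and with 1 library a group the treatment cannot be told apart from the sort or the library.

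How many genes differed between the libraries within the members depended on which members and counts were used. Of 3319 genes compared, 17 were at least 2-fold higher in NK-depleted (0.512%) and 17 at least 2-fold lower (0.512%), against 8 (0.265%) and 10 (0.331%) of 3019 in CD3+CD8+ barcodes. Without the 2 members that stood apart the counts were 6 and 10, of which 4 and 9 were among the first. With counts thinned to 5500 UMIs they were 128 and 180 of 3501. In members with few T cell transcripts they were 572 and 486 of 3631, at sums of 178611 and 73980 UMIs. Of the lists, migration and cytoskeleton had 0 of 21 genes past 2-fold and a median log2 ratio of -0.25, MHC class II 0 of 6 and -0.52, and NF-kB 0 of 18 and -0.27, beside -0.04 over all genes. These medians depended on the members. The class II list summed to 2757 CPM in NK-depleted against 4197 in control, and to 2934 against 3432 without the 2 that stood apart. With few T cell transcripts the sums were higher in NK-depleted, at 8840 against 8365 for class II, 8705 against 8600 for NF-kB and 23993 against 21348 for migration and cytoskeleton. The early response list had 2 of 13 genes lower in NK-depleted, costimulatory ligands 1 of 5, chemokines 1 of 7 and the interferon gamma list 1 of 18, and of 4 cytokine genes 1 was higher and 1 lower. Antigen uptake and cholesterol genes (1 of 6 each) and genes of G2 and M phase (1 of 9) had 1 higher. Over all members the 4 other markers were somewhat lower in NK-depleted: Ccr7 was at 821 against 988 CPM, Cd63 at 406 against 467, Marcks at 439 against 573 and Basp1 at 369 against 465. This did not hold for all 4 with few T cell transcripts. There Ccr7 and Marcks were higher in NK-depleted and Cd63 and Basp1 lower, and the 4 summed to 6867 against 6842 CPM.

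Among genes of at least 100 CPM in 1 library that kept their direction under 3 checks (means over barcodes, thinned counts and no members of 3 or more T cell UMIs), the largest ratios toward control were those of Nr4a2, an immediate early nuclear receptor, and Mxi1, an antagonist of Myc. The third check left 17 control and 6 NK-depleted members. Nr4a2 was at 222 CPM in control and 97.6 in NK-depleted members, and no single barcode held over 10% of its UMIs. It was lower in NK-depleted CD3+CD8+ barcodes as well, at a ratio of 0.578. Mxi1 was at 102 and 46.7 CPM. Bcl2a1a, a survival gene with near-identical copies that short reads may not tell apart, was at 158 and 75.3. Scin, an actin-severing protein, was at 191 and 99.0, and Birc2, which restrains noncanonical NF-kB signalling, at 257 and 142. Bhlhe40, a transcription factor of activated cells, was at 437 and 258. The other genes named on this side were Gcnt2, Epb41, Arl5c, Tmem131, Atxn1 and Phip. Below the level for naming, and picked after their values were seen, the ligands Cd80 (91.7 and 31.4 CPM), Tnfsf4 (41.1 and 16.7) and Cd70 (27.8 and 9.06) and the cytokine Il1b (97.7 and 28.6) were also lower in NK-depleted members. Of the 228 control Il1b UMIs, 24.1% were in 1 barcode.

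On the side of NK-depleted, 1 barcode often carried the difference. Cited2, a transcription cofactor, was at 139 CPM against 46.7, with 70.5% of its UMIs in 1 barcode, and at 43.9 against 45.9 without the 2 members that stood apart. Il12b was at 160 against 70.3, with 57.8% of its UMIs in 1 barcode. In members with few T cell transcripts it had 2 UMIs in control and 0 in NK-depleted. Gzmf was at 839 against 356, with 50.1% in 1 barcode, and was 4.15 times higher in NK-depleted CD3+CD8+ barcodes as well. Mif, a cytokine with broad expression, was at 720 against 373. Among the other genes named, Cenpf and Ube2c, both of cell division, had no UMI in members with few T cell transcripts of either library. For a ratio, a class sum of 0 was set to 3 UMIs. The third check was thus set by that floor for Il12b, Cenpf and Ube2c, whose counts there show no rise in NK-depleted. Ccnd1, Nop58, Hspd1, Aprt, Ifitm3 and Phgdh completed the 12. Cxcl9 and Ctsl, which differed by over 10-fold in opposite directions (88.2 and 7.67 CPM, 2.57 and 54.4 CPM), were at 6.18 and 8.19 and at 2.65 and 5.96 CPM without the 2 members that stood apart.

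**Figure D5:**
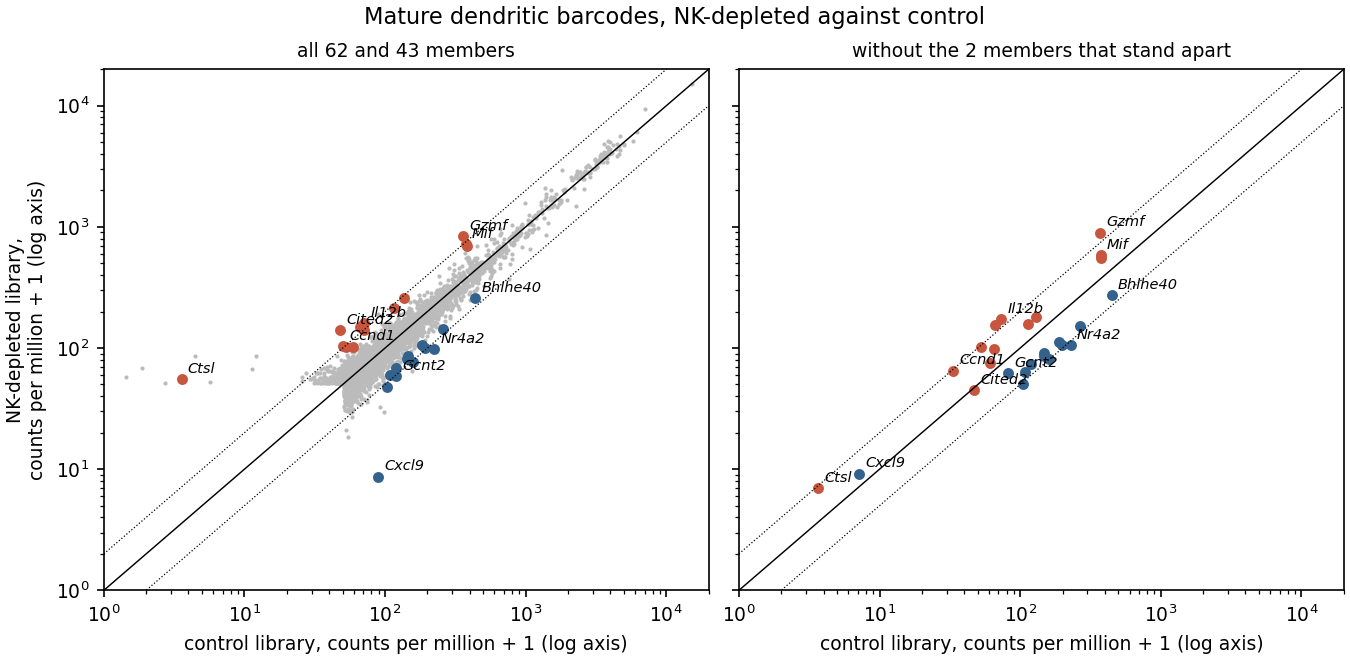
Level in NK-depleted (y axis) against control members (x axis), as CPM plus 1 on log axes, for all genes compared in grey and the 24 named genes with Cxcl9 and Ctsl in colour; dotted lines mark 2-fold. Without the 2 members that stood apart (right) Cited2, Cxcl9 and Ctsl move to the line of equal level or near it, whereas Gzmf stays above 2-fold.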

How the data were processed

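Single-cell RNA was measured in 2 libraries of sorted CD8+ T cells, 1 for each group. The authors made the deposited counts with Cell Ranger 6.1.2 and the mouse build mm10, per the submitters' processing notes, which also name Seurat 4.0.6. The deposited values are whole-number UMI counts for 32285 genes per barcode, not normalized. The 38 symbols with more than 1 row were summed per symbol. Doublets were not removed here, and no caller was run, because members that hold T cell transcripts are part of what is described.

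UMIs were summed over the barcodes of a class in each library and divided by the class total to give CPM. CD3+CD8+ barcodes had at least 1 UMI of Cd3d, Cd3e or Cd3g and at least 1 of Cd8a or Cd8b1, and Siglech barcodes at least 2 UMIs of Siglech. A gene was counted at a ratio of at least 2 in the same direction in both libraries, with at least 50 CPM in 1 of the classes. Intervals are exact: Clopper-Pearson for shares, conditional binomial for ratios. The ratio code was tested on simulated data. Member sums held 2334462 and 1434345 UMIs. No p-value is given, since each group has 1 library.

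The genes named are the 24 largest and 6 smallest ratios against CD3+CD8+ barcodes, the 16 largest and 10 smallest against Siglech barcodes, by the weaker library and at least 100 CPM, the 12 largest and smallest between libraries that kept their direction under 3 checks, and members of 18 gene lists by level. Left out were the 3 genes of the rule, segments of T cell receptors and immunoglobulins, genes of ribosomal proteins, haemoglobins, mitochondria and sex chromosomes, and genes without a proper name. The members and all lists were chosen with earlier results of these data known. Genes of the lists that did not occur under their symbol (Cd58, Clec7a, Mx1 and Mx2) were not analysed here. Values of some genes in the lists are not reported here. Alternatives changed the minimums of the rule, left out kinds of members, thinned barcodes to 5500 UMIs, averaged over barcodes, and used TMM factors of edgeR 4.0.16 (R 4.3.3) or median-of-ratios factors. Python 3.11.15 with numpy 2.4.6, scipy 1.17.1, pandas 2.3.3 and matplotlib 3.10.9 did the rest.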

Additional observations from a re-analysis of the deposited data

How the results depend on the processing

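Ratios of the 30 genes named against CD3+CD8+ barcodes and the 26 against Siglech barcodes kept their direction under every alternative run, while the counts past 2-fold depended on which members and genes were taken. Alternatives that left out members of 10 or more T cell UMIs, shared barcodes, members with few markers or the 2 that stand apart were chosen after seeing the data.

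For genes higher than in CD3+CD8+ barcodes, in place of 222, the count was 628 without members of 3 or more T cell UMIs, 439 without members of 10 or more, 639 without those and the 2 that stand apart, 365 with means over barcodes, 353 with thinned counts, 389 with a 20 CPM minimum and 113 with 100 CPM. For genes lower, in place of 7, the counts in the same order were 460, 502, 601, 69, 57, 12 and 2. For genes higher than in Siglech barcodes, in place of 247, they were 532 without members of 3 or more T cell UMIs, 539 without those of 10 or more and the 2 that stand apart, 415 with means, 396 with thinned counts, 429 at 20 CPM and 149 at 100 CPM. For genes lower, in place of 364, they were 578 without members of 10 or more T cell UMIs, 613 without those and the 2 that stand apart, 588 at 20 CPM and 202 at 100 CPM.

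Between the libraries, in place of 17, the genes higher in NK-depleted members were 4 with at least 10 Cd74 UMIs, 3 without the 8% of members with most UMIs, 11 without shared barcodes, 8 without members with few markers, 6 without the 2 that stand apart, 128 with thinned counts, 73 at 20 CPM and 6 at 100 CPM. Without members of 3 or more T cell UMIs they were 696, without those of 10 or more 1008, and without these and the 2 that stand apart 572, at sums of 178611 and 73980 UMIs. Genes lower, in place of 17, were 47 without shared barcodes, 11 without members with few markers, 10 without the 2 that stand apart, 38 with means, 180 with thinned counts, 74 at 20 CPM and 8 at 100 CPM, and 423, 817 and 486 in the 3 settings that left out members by T cell UMIs. The share of members was 0.237% in control in those 3 settings and 0.0718%, 0.132% and 0.12% in NK-depleted.

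Of 24 genes named between the libraries, 5 turned direction in some setting, as log2 ratios. Cited2 went to -0.337 with at least 10 Cd74 UMIs, -0.0608 without the 8% with most UMIs, -0.0837 without shared barcodes, -0.0691 without members with few markers and -0.0641 without the 2 that stand apart. Gzmf went to -0.0564 with at least 5 Fscn1 UMIs. Without members of 10 or more T cell UMIs or the 2 that stand apart, Mif went to -0.292, Hspd1 to -0.313 and Phip to 0.0306. The cause was not tested beyond the members left out. Il12b, Cenpf and Ube2c are not among the 5, but their ratios with few T cell transcripts rest on sums of 0 set to 3 UMIs. There Il12b had 2 UMIs in control and 0 in NK-depleted, and Cenpf and Ube2c had none in either library. The 91 other overall counts and shares stayed within 1.5 times or their interval. Counts within gene lists moved by over 1.5 times in 130 settings and stayed in 400, and log2 ratios of named genes moved by 0.58 or more in 296 and stayed in 1111. Scaling factors moved the median of all genes by at most 0.10 on the log2 scale. No paired analysis was possible because each group has 1 library. Depth limits low genes: 3 UMIs are 1.29 and 2.09 CPM over the members, and 16.8 and 40.6 CPM over those with few T cell transcripts.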
